A study of Mus musculus with 6 samples.

Results

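The genes described here are 44 genes of sterol and fatty acid synthesis, most of them known targets of the SREBP transcription factors, and their rows were taken from the deposited count table by gene symbol. All 44 were found among the 52636 genes of the table, and all 44 passed the expression filter, so that they stood among the 17849 genes tested. They comprised a cholesterol arm of 18 enzymes, a fatty acid arm of 20 enzymes and 6 regulators. RNA was sequenced from mouse embryoid bodies (EBs), the aggregates that embryonic stem cells (ESCs) form in hanging drops and in which they start to differentiate. WT EBs came from the parental ESC line E14, and Tnfaip2-/- EBs came from a single E14 clone that carries a CRISPR-Cas9-induced premature stop codon in exon 2 of Tnfaip2. In both genotypes, EBs were kept for 3 days in hanging drops and were harvested after 3 further days of differentiation. Each genotype had 3 replicates with between 21765931 and 23804489 counts per sample, and because all replicates of a genotype derive from 1 line, p-values measure the spread between cultures and not between clones.

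Tnfaip2, the edited gene, was covered by 7, 4 and 7 counts in WT samples and by 0, 2 and 2 in Tnfaip2-/- samples. Every Tnfaip2-/- sample lay below every WT sample, with means of 6.0 and 1.33 counts (adjusted p = 0.0133 in edgeR's test without the expression filter, which the gene did not pass). A premature stop codon need not remove the transcript. Pluripotent cells were represented in both genotypes, with Pou5f1 as the most abundant of 4 markers of these cells per kilobase of exon in WT EBs and Utf1 in Tnfaip2-/- EBs. Their summed level was 1633, 1618 and 1617 counts per 1000000 (CPM) in WT EBs and 1361, 1370.4 and 1371 CPM in Tnfaip2-/- EBs. Without Pou5f1, which fell, the sum was 864, 868 and 856 CPM compared with 939.9, 947 and 959 CPM, and so was higher in Tnfaip2-/- EBs. The 5 markers of primitive streak and mesoderm, which mark differentiating EBs, summed to 73.3, 72.4 and 72.7 CPM in WT EBs and to 19.9, 17.5 and 20.8 CPM in Tnfaip2-/- EBs. Their median log2 fold change was -3.74, a larger fall than that of the sum, because Eomes made up 18.5 of the 19.4 CPM in the mean of the Tnfaip2-/- EBs. The other 4, T, Mixl1, Mesp1 and Kdr, were near 0 there, with 0 to 17 counts in a sample. EBs of both genotypes thus held RNA of pluripotent cells, whereas of the streak and mesoderm markers only Eomes was above 1 CPM in Tnfaip2-/- EBs. In RNA from whole EBs, fewer cells of a type and less RNA per cell cannot be told apart.

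Cholesterol is built from acetyl-CoA through mevalonate, isoprenoid units, squalene and lanosterol, whereas fatty acids are built from acetyl-CoA and malonyl-CoA and are then desaturated, elongated and activated with coenzyme A. SREBP precursors are held in the endoplasmic reticulum by SCAP and the INSIG proteins while sterols are abundant, and are carried to the Golgi and cleaved when sterols fall. SREBP2, encoded by Srebf2, acts mainly on the cholesterol genes, SREBP1c, a product of Srebf1, acts mainly on the fatty acid genes, and Insig1 is itself a target of these factors.

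Members changed in both directions within each arm, and by little. By edgeR's quasi-likelihood test with Benjamini-Hochberg adjustment over all 17849 genes and a threshold of 0.05, 36 of the 44 members were called, beside 67.7% of all tested genes. Of these, 16 were higher in Tnfaip2-/- EBs, beside 34.0% of all tested genes, and 20 were lower, beside 33.7%. The groups did not overlap in 36 of the 44 members, beside 69.4% of all tested genes. Only Acsl6 was called with a change of at least 1.5-fold, a size that 24.8% of all tested genes reached with a call. The median log2 fold change, given throughout as Tnfaip2-/- over WT, was -0.05 over the 44 members and 0.00 over all tested genes. The median size of the change regardless of direction was 0.26 in the members and 0.30 in all tested genes. Among the 12124 tested genes whose mean level was at least that of the lowest member, 4.62 CPM, the median size was 0.25, 75.4% were called and 17.1% changed by at least 1.5-fold. Of these genes 35.7% were higher, 39.7% were lower and 76.0% had groups that did not overlap, with a median log2 fold change of -0.02, which is nearer to the members than the shares over all tested genes.

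Some counts are uncertain where exons of different genes overlap, because the libraries do not mark strand. By its default, featureCounts, which made the counts, assigns a read that overlaps exons of more than 1 gene to none of them, so that such stretches may be missing from a count, but whether this default was kept for these libraries is not given in the sources used here. By the study's methods, only reads with a single position in the genome were counted, so reads from stretches that recur in other genes can be missing as well. Over more than 5% of their exon length, Hmgcs1 (12.1%), Idi1 (9.22%), Scap (13.2%), Acss2 (9.12%), Acsl1 (9.91%) and Acsl5 (8.31%) overlap exons of genes on the opposite strand, and Tm7sf2 (12.1%) and Acsl3 (5.6%) those of a gene on the same strand. The larger shares of Fdps and Fdft1 are given with their values.

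**Figure D1:**
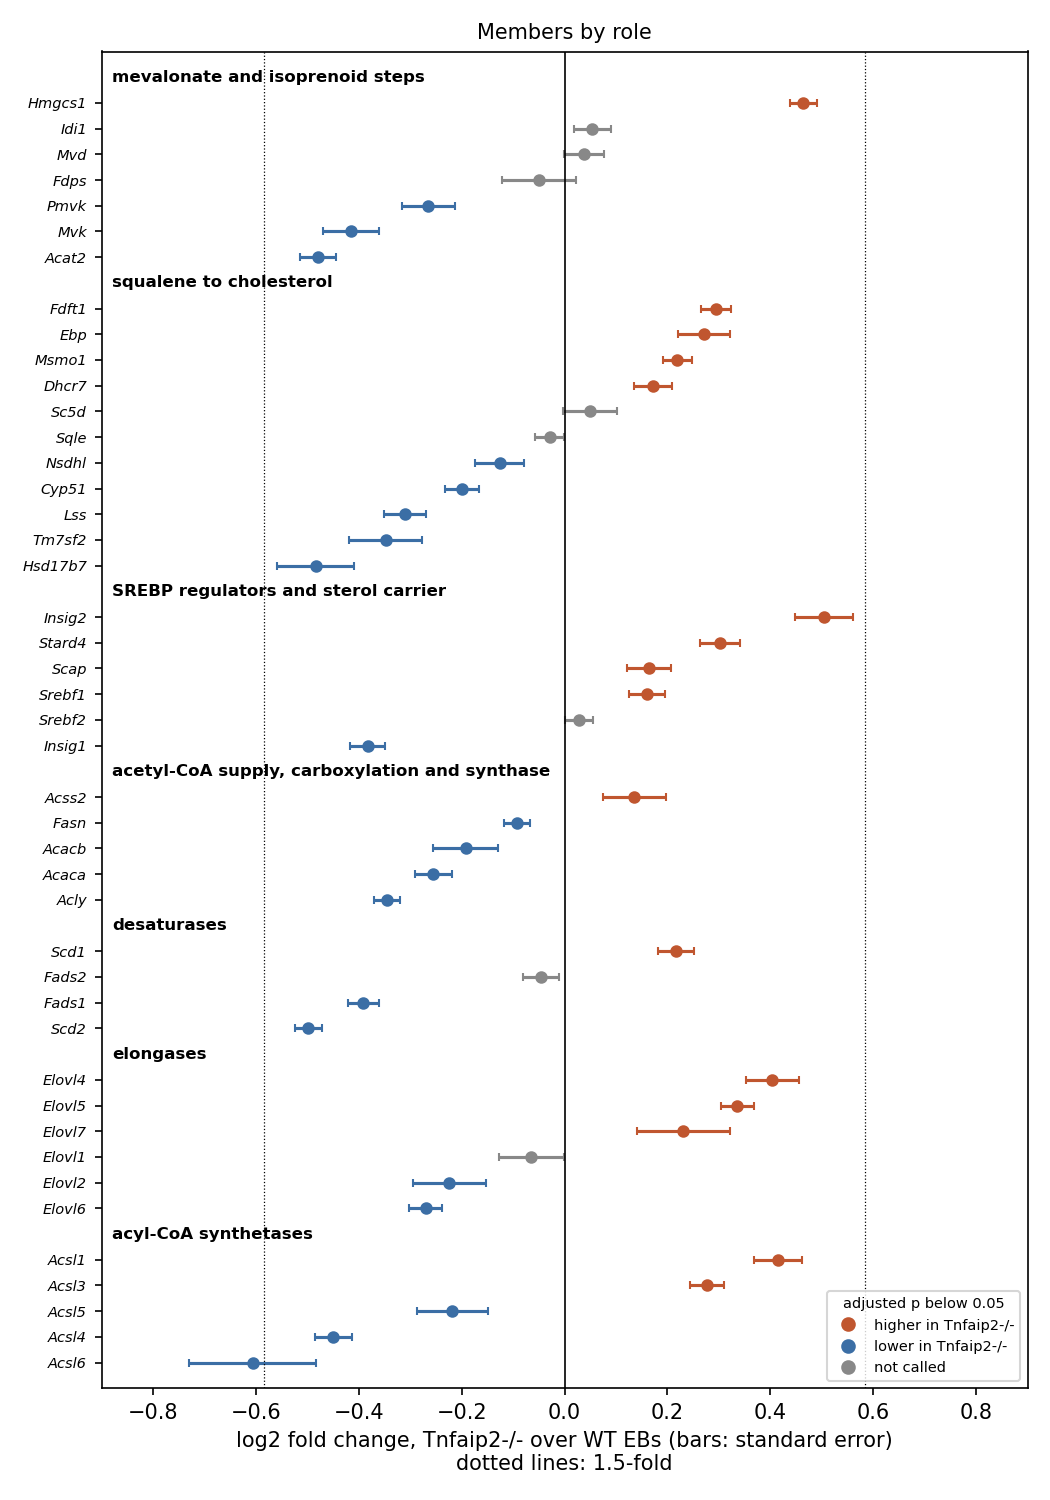
Log2 fold change of each of the 44 members (horizontal axis, Tnfaip2-/- over WT EBs) by role, with the standard error as bars, colour for the call at an adjusted p below 0.05 and dotted lines at 1.5-fold. All 7 roles hold members on both sides of 0, and only Acsl6, at -0.61, lies beyond a dotted line.

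The cholesterol arm starts with condensation of acetyl-CoA units, and its neighbouring first enzymes moved apart. Hmgcs1, which encodes the cytosolic HMG-CoA synthase, was at 203.0, 207 and 202 CPM in WT EBs and at 288, 275 and 280.0 CPM in Tnfaip2-/- EBs. All Tnfaip2-/- samples were above all WT samples, and the log2 fold change was 0.46 with a standard error of 0.03 (adjusted p = 2.66e-20, edgeR). Acat2, which encodes the cytosolic thiolase that supplies acetoacetyl-CoA to this synthase, was at 99.3, 101 and 105 CPM in WT EBs and at 75.0, 71.5 and 73.0 CPM in Tnfaip2-/- EBs. Here all Tnfaip2-/- samples were below all WT samples, with a log2 fold change of -0.48 and a standard error of 0.03 (adjusted p = 1.05e-16, edgeR). The level of Hmgcs1 per kilobase of exon, divided by that of Acat2, was 1.13, 1.13 and 1.06 in WT EBs and 2.13, 2.13 and 2.13 in Tnfaip2-/- EBs. Of all 51-base windows of Acat2 exons, the read length of these libraries, 38.9% also occur in other genes, Acat3 and Tcp1, so its count is uncertain. Acat3 fell as well, from 450, 464 and 473 counts to 297, 262 and 267 counts.

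Of the 15 cholesterol members searched, Hmgcs1 also held the letters TCACNCCAC in its promoter. These letters stand here for the sterol regulatory element, the SREBP recognition motif, and other forms of the element were not searched. The RefSeq table of mouse promoters (GRCm38.p6, 250 bases before to 50 bases after each transcription start) held 37 of the 44 members; Fads1, Fdft1, Fdps, Scd1, Scd2, Sqle and Stard4 had no entry. The letters TCACNCCAC were searched on both strands and occurred in 2 of these 37 members, Hmgcs1 and Acsl1, compared with 1.44% of the 27025 genes of the table and 1.46% of the 11143 tested genes among them. The upstream 250 bases of both are shown because they are the members with a match, with the element and any CCAAT box, on either strand (GTGGGGTGA and ATTGG on the opposite strand), in capitals. The Hmgcs1 stretch is chr13:119690101-119690350 on the forward strand, and the Acsl1 stretch is chr8:46490716-46490965 on the forward strand, before 1 of the 2 starts listed for this gene.
Hmgcs1: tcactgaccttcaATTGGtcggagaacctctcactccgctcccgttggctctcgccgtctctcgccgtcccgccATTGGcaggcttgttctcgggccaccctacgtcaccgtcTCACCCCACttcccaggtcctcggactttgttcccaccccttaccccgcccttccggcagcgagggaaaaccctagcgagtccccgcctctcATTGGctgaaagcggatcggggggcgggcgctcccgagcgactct
Acsl1: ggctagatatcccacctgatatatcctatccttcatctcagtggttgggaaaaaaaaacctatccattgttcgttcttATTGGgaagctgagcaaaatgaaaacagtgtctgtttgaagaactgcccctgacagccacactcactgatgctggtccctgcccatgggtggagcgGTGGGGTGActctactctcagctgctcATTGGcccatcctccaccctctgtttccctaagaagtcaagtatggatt

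The element starts 137 bases before the transcription start in Hmgcs1 and 76 bases before it in Acsl1, and both genes were higher in Tnfaip2-/- EBs. The CCAAT box, the motif of NF-Y, a common partner of SREBPs, occurred in 29 of the 37 members (78.4%), compared with 41.1% of all genes of the table and 43.2% of the tested genes. By arm, it occurred in 14 of 15 cholesterol members, 4 of 5 regulators and 11 of 17 fatty acid members. By direction, it occurred in 11 of 13 members that were higher and in 13 of 18 that were lower. The GC box GGGCGG, the motif of SP1, occurred in 30 of the 37 members (81.1%), compared with 38.2% of all genes and 68.3% of the tested genes. The general E-box CANNTG occurred in 28 of the 37 members (75.7%), compared with 75.0% and 67.9%. These are matches of letters within the windows, not measured binding sites.

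Downstream of Hmgcs1, both kinases of the mevalonate steps were lower in Tnfaip2-/- EBs. Mvk, the mevalonate kinase, was at 30.0, 28.7 and 31.2 CPM in WT EBs and at 23.5, 22.2 and 21.7 CPM in Tnfaip2-/- EBs (log2 fold change -0.42, standard error 0.05, adjusted p = 4.68e-09, edgeR). Pmvk, which adds the next phosphate, was at 33.6, 31.4 and 34.8 CPM in WT EBs and at 27.1, 28.9 and 27.2 CPM in Tnfaip2-/- EBs (log2 fold change -0.26, adjusted p = 1.52e-05). For both kinases, the highest Tnfaip2-/- sample lay below the lowest WT sample. Mvd, the decarboxylase that follows them, Idi1, the isomerase of isopentenyl diphosphate, and Fdps, the farnesyl diphosphate synthase, were not called, with log2 fold changes of 0.04, 0.05 and -0.05 and overlapping groups. Idi1 was at 80.0, 85.0 and 82.6 CPM in WT EBs and at 86.9, 87.7 and 82.4 CPM in Tnfaip2-/- EBs. Scaling by library totals alone or by the upper quartile gave Idi1 a call, with an adjusted p of 0.0424 and 0.0465 at a log2 fold change of 0.08. Exons of Fdps overlap Gm43738 on the same strand over 26.7% of their length, and Gm43738 had 0 counts in all samples. Of the 51-base windows of Fdps 26.1% occur in other genes, and of those of Idi1 25.2%, so both counts are uncertain.

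Squalene synthase opens the branch that leads only to sterols, and its gene rose. Fdft1 was at 163, 159 and 159.8 CPM in WT EBs and at 189, 200.3 and 202 CPM in Tnfaip2-/- EBs. No sample overlapped with the other group, and the log2 fold change was 0.29 with a standard error of 0.03 (adjusted p = 1.77e-12, edgeR). Exons of Fdft1 overlap the gene Ctsb on the opposite strand over 18.3% of their length. Ctsb had 3352, 3344 and 3501 counts in WT EBs and 3901, 3695 and 3771 counts in Tnfaip2-/- EBs. Another gene that shares windows with Fdft1, Gm6781, had 336, 329 and 350 counts in WT EBs and 452, 436 and 447 in Tnfaip2-/- EBs, so the count of Fdft1 is uncertain.

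Hsd17b7, a ketoreductase of the demethylation steps after lanosterol, showed the largest fall of the sterol branch. It was at 15.0, 14.6 and 14.1 CPM in WT EBs and at 9.95, 10.1 and 11.2 CPM in Tnfaip2-/- EBs, so that the groups did not overlap. The log2 fold change was -0.48 with a standard error of 0.07 (adjusted p = 2.00e-07, edgeR). Nsdhl, its partner dehydrogenase in the same steps, was at 39.2, 38.1 and 38.3 CPM in WT EBs and at 37.1, 33.3 and 35.6 CPM in Tnfaip2-/- EBs. At -0.13 its log2 fold change was small (adjusted p = 0.0175), and the call was lost without replicate 2 of the Tnfaip2-/- EBs (log2 fold change -0.09, adjusted p = 0.148) and under 3 other alternatives, besides the stricter threshold of 0.01 and the test against a fold change of 1.5. Msmo1, the oxygenase that starts these steps, went the other way, from 145.7, 145.1 and 146 CPM to 172, 169 and 168 CPM (log2 fold change 0.22, adjusted p = 3.26e-09).

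The other genes from squalene to cholesterol were likewise mixed. Lss, which closes the sterol rings, Cyp51, the lanosterol demethylase, and Tm7sf2, a sterol reductase, were lower in Tnfaip2-/- EBs, with log2 fold changes of -0.31, -0.20 and -0.35. Ebp, a sterol isomerase, and Dhcr7, the reductase of dehydrocholesterol, were higher, with log2 fold changes of 0.27 and 0.17. In all 5 of these the groups did not overlap, and the adjusted p values ranged from 5.79e-09 for Lss to 7.02e-05 for Dhcr7 (edgeR). Sqle, the squalene epoxidase, was at 153.0, 153 and 153 CPM in WT EBs and at 152.7, 146 and 151 CPM in Tnfaip2-/- EBs. Its groups did not overlap either, but the difference was small and not called (log2 fold change -0.03, adjusted p = 0.378). Sc5d, a sterol desaturase, overlapped between the groups at a log2 fold change of 0.05.

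Of the 18 genes of the cholesterol arm, 5 were higher, 8 were lower and 5 were not called, beside 34.0% higher and 33.7% lower among all tested genes, and the median log2 fold change was -0.04. The 7 genes of the mevalonate and isoprenoid steps had 1 higher and 3 lower, and the 11 genes from squalene to cholesterol had 4 higher and 5 lower, counts too small to be read against these shares. The summed level of the arm was 1337, 1337 and 1345 CPM in WT EBs and 1421, 1406 and 1422 CPM in Tnfaip2-/- EBs, 5.7% higher in the mean of the latter, and the groups did not overlap. Summed per kilobase of exon, the arm was 3.1% higher, again with no overlap. By stage, the 7 genes of the mevalonate and isoprenoid steps summed to 529, 529 and 537 CPM in WT EBs and to 579, 569 and 567 CPM in Tnfaip2-/- EBs, 7.5% higher with no overlap, but only 0.7% higher and overlapping per kilobase. In this stage Hmgcs1 alone was called higher, and the sum of the other 6 genes, which was added after the values were seen, was lower, at 326, 322 and 336 CPM compared with 291, 293 and 287 CPM. The 11 genes from squalene to cholesterol summed to 807, 809 and 807 CPM in WT EBs and to 842, 838 and 854 CPM in Tnfaip2-/- EBs, 4.6% higher and 5.7% higher per kilobase, with no overlap on either scale. In the means this sum went from 808 to 845 CPM, and Fdft1 alone, whose count is uncertain, went from 161 to 197 CPM. Nearly all of the rise in CPM thus lay in Fdft1, while the rises and falls of the other genes of this stage nearly cancelled. Over the whole arm without Hmgcs1, the higher sum of the later stage and the lower sum of the 6 early genes nearly cancelled, at 1134, 1131 and 1143 CPM in WT EBs and 1133, 1131 and 1142 CPM in Tnfaip2-/- EBs, a change of -0.1% with overlapping groups. Per kilobase, that sum changed by -2.1% with no overlap.

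**Figure D2:**
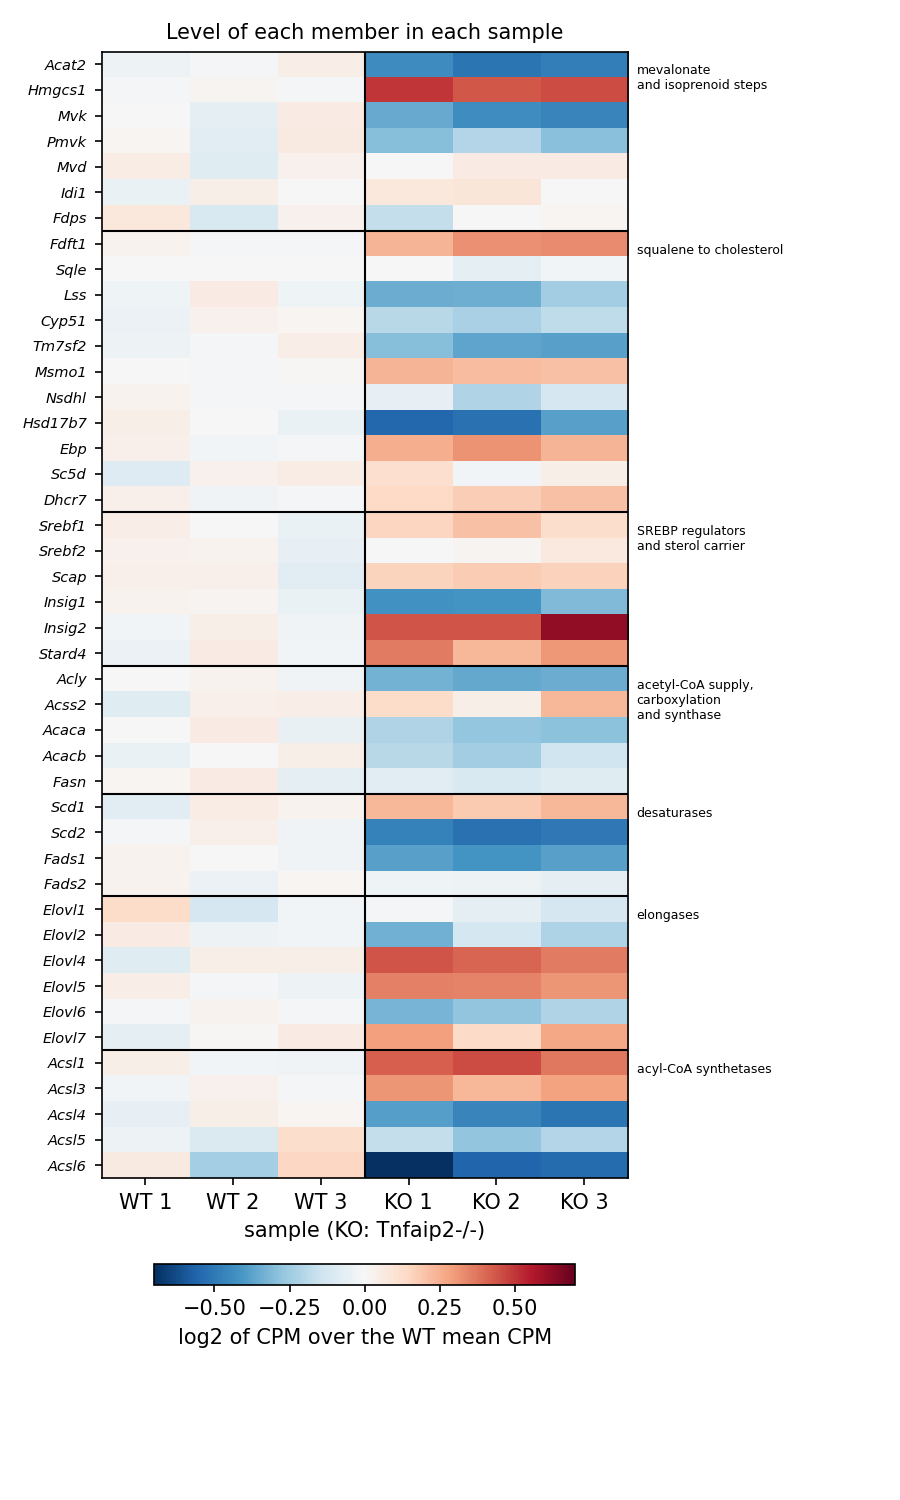
Level of each of the 44 members in each of the 6 samples, as the log2 of CPM over the WT mean CPM (colour, blue lower and red higher), with lines between the 7 roles and between genotypes. Colours within a role are mixed in the Tnfaip2-/- columns, and the 3 columns of a genotype are alike in most members.

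The INSIG genes, whose products hold SCAP and SREBP precursors in the endoplasmic reticulum, moved in opposite directions. Insig1 was at 119, 118 and 113 CPM in WT EBs and at 87.1, 87.3 and 94.1 CPM in Tnfaip2-/- EBs (log2 fold change -0.38, standard error 0.03, adjusted p = 9e-14, edgeR). Insig2 was at 21.4, 22.2 and 21.3 CPM in WT EBs and at 29.4, 29.4 and 33.3 CPM in Tnfaip2-/- EBs (log2 fold change 0.50, standard error 0.06, adjusted p = 8.21e-11). Neither gene overlapped between the groups, and replicate 3 of the Tnfaip2-/- EBs was the highest of its group for both. Per kilobase of exon, Insig2 stood at 0.160, 0.167 and 0.167 of the level of Insig1 in WT EBs and at 0.300, 0.299 and 0.315 in Tnfaip2-/- EBs. Insig1 thus remained the more abundant of the pair in every sample, at 28.9 CPM per kilobase in the mean of the Tnfaip2-/- EBs compared with 8.83 for Insig2.

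The upstream 250 bases of this pair, whose changes had opposite directions, are shown with CCAAT boxes on either strand in capitals. The Insig1 stretch is chr5:28071162-28071411 on the forward strand, and the Insig2 stretch is chr1:121332590-121332839 on the reverse strand, before the outermost of the 3 starts listed for that gene. Neither stretch holds TCACNCCAC.
Insig1: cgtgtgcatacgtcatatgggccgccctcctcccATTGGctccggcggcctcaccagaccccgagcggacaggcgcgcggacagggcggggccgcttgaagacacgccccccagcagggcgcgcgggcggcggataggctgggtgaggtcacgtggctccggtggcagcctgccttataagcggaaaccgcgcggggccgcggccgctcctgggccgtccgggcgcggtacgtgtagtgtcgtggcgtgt
Insig2: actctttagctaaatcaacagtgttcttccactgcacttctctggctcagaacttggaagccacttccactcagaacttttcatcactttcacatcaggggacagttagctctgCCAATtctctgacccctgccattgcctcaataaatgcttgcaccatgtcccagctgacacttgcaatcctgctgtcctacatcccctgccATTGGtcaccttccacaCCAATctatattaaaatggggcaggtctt

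Insig1 has 1 CCAAT box and 3 GC boxes in this stretch, and Insig2 has 3 CCAAT boxes and 0 GC boxes. The windows of the other 2 starts of Insig2 hold 1 GC box each and no CCAAT box, so that the contrast belongs to the stretch shown. Counts per gene do not tell which of the 3 starts of Insig2 was used in the EBs.

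The genes of the SREBP precursors and of their escort changed little. Srebf1 was at 82.7, 80.0 and 77.6 CPM in WT EBs and at 89.1, 92.3 and 87.4 CPM in Tnfaip2-/- EBs (log2 fold change 0.16, standard error 0.04, adjusted p = 8.17e-05, edgeR). Scap, the escort, was at 43.3, 43.3 and 40.2 CPM in WT EBs and at 47.1, 47.8 and 47.2 CPM in Tnfaip2-/- EBs (log2 fold change 0.16, standard error 0.04, adjusted p = 0.000893). No WT sample reached the lowest Tnfaip2-/- sample for either gene. Srebf2 was at 235, 235 and 221 CPM in WT EBs and at 229.7, 233 and 242 CPM in Tnfaip2-/- EBs, which overlapped and were not called (log2 fold change 0.03, adjusted p = 0.388). Per kilobase of exon, Srebf1 stood at 0.449, 0.434 and 0.447 of the level of Srebf2 in WT EBs. In Tnfaip2-/- EBs this ratio was 0.494, 0.505 and 0.461. Counts per gene do not separate the SREBP1a and SREBP1c transcripts of Srebf1, nor do they measure cleavage of the precursors.

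Stard4, which encodes a carrier of cholesterol between membranes, rose. It was at 57.8, 61.9 and 58.6 CPM in WT EBs and at 76.4, 69.8 and 73.4 CPM in Tnfaip2-/- EBs, with no overlap and a log2 fold change of 0.30 with a standard error of 0.04 (adjusted p = 4.08e-09, edgeR). Of the 6 regulators, 4 were higher, 1 was lower and 1 was not called, and their median log2 fold change was 0.16. Beside 34.0% higher and 33.7% lower among all tested genes, nothing is read from counts over 6 genes.

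**Figure D3:**
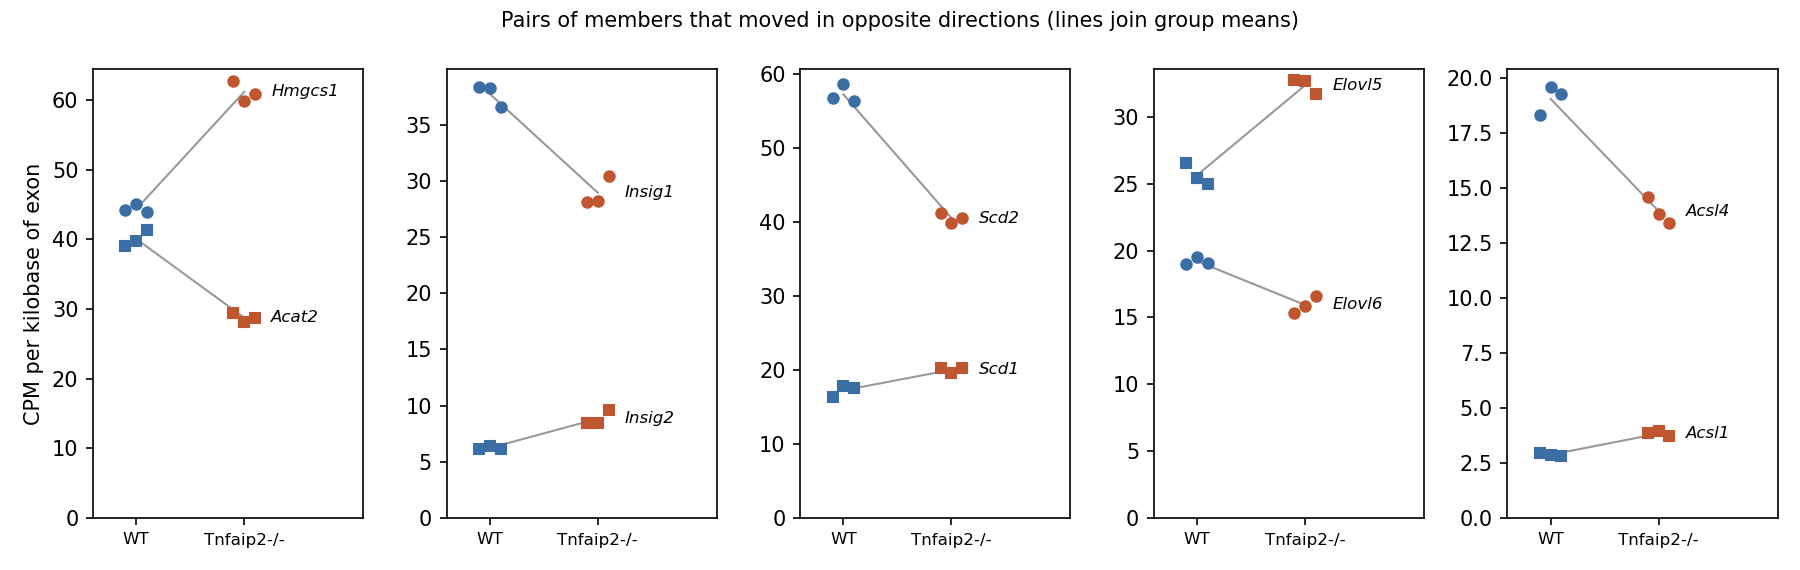
Level per kilobase of exon (vertical axis, CPM per kilobase, from 0) of 5 pairs of members with related functions in WT and Tnfaip2-/- EBs, with points for samples and lines that join the group means. The pairs were picked because their changes had opposite directions. By this choice one gene of each pair is higher and the other lower in Tnfaip2-/- EBs. Srebf1 and Srebf2, at log2 fold changes of 0.16 and 0.03, did not change in opposite directions and are not plotted. Hmgcs1 and Acat2 differ by a factor of 1.11 in the mean of the WT EBs and 2.13 in that of the Tnfaip2-/- EBs.

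In the fatty acid arm, the enzymes that make the palmitate chain were mostly lower in Tnfaip2-/- EBs. Acly, which splits citrate to supply cytosolic acetyl-CoA and was the member with the highest level per kilobase over all samples (68.4 CPM per kilobase), was at 405, 410.5 and 397 CPM in WT EBs and at 322, 316 and 317 CPM in Tnfaip2-/- EBs. These groups did not overlap, and the log2 fold change was -0.34 with a standard error of 0.02 (adjusted p = 8.53e-17, edgeR). In Tnfaip2-/- EBs alone, Hmgcs1 stood slightly above Acly, at 61.2 compared with 60.3 CPM per kilobase. Fasn, the fatty acid synthase, was at 541, 557 and 512 CPM in WT EBs and at 507, 498 and 505 CPM in Tnfaip2-/- EBs. Its fall was small, with a log2 fold change of -0.09 and a standard error of 0.03 (adjusted p = 0.00174), although the groups did not overlap.

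Acaca and Acacb, the acetyl-CoA carboxylases, make malonyl-CoA. Acaca was at 85.9, 89.5 and 82.9 CPM in WT EBs and at 74.5, 71.3 and 70.6 CPM in Tnfaip2-/- EBs (log2 fold change -0.26, adjusted p = 3.59e-08, edgeR). Acacb was at 18.1, 18.8 and 19.3 CPM in WT EBs and at 16.4, 15.8 and 17.0 CPM in Tnfaip2-/- EBs (log2 fold change -0.19, adjusted p = 0.00696), a call that DESeq2 did not make (adjusted p = 0.0588). Neither overlapped between the groups, and the count of Acaca is uncertain because 30.3% of its 51-base windows occur in other genes, mostly Gm5182. Acss2, which makes acetyl-CoA from acetate, was at 18.6, 20.2 and 20.4 CPM in WT EBs and at 21.6, 20.3 and 23.2 CPM in Tnfaip2-/- EBs. It was the only riser among these 5 genes, but its groups overlapped, the adjusted p was 0.0469 at a log2 fold change of 0.14, and the call was lost without any 1 library other than replicate 2 of the Tnfaip2-/- EBs, at log2 fold changes from 0.08 (adjusted p = 0.338, without replicate 3 of the Tnfaip2-/- EBs) to 0.15 (adjusted p = 0.0575, without replicate 3 of the WT EBs). It was also lost without the expression filter (adjusted p = 0.123), with the size factors of DESeq2 in edgeR (adjusted p = 0.0515), with DESeq2 itself (adjusted p = 0.238) and with a replicate block (adjusted p = 0.0524).

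The stearoyl-CoA desaturases, which put the first double bond into saturated chains, changed in opposite directions. Scd2 was at 310.4, 320.4 and 308 CPM in WT EBs and at 225, 218 and 221 CPM in Tnfaip2-/- EBs (log2 fold change -0.50, standard error 0.03, adjusted p = 1.17e-21, edgeR). Scd1 was at 80.0, 87.5 and 85.7 CPM in WT EBs and at 99.2, 95.9 and 99.0 CPM in Tnfaip2-/- EBs (log2 fold change 0.22, standard error 0.04, adjusted p = 5.48e-07). Both genes had groups that did not overlap. Per kilobase of exon, Scd1 stood at 0.288, 0.305 and 0.311 of the level of Scd2 in WT EBs and at 0.492, 0.491 and 0.499 in Tnfaip2-/- EBs, so that Scd2 stayed the more abundant in every sample. These paralogues share few 51-base windows with other genes, 4.44% in Scd1 and 3.85% in Scd2.

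Fads1 and Fads2 are neighbouring genes whose products desaturate polyunsaturated fatty acids. Fads1 was at 149, 147 and 144 CPM in WT EBs and at 113, 109.9 and 113 CPM in Tnfaip2-/- EBs, with no overlap and a log2 fold change of -0.39 with a standard error of 0.03 (adjusted p = 8.13e-16, edgeR). Fads2 was at 80.3, 76.8 and 79.6 CPM in WT EBs and at 77.4, 76.9 and 75.2 CPM in Tnfaip2-/- EBs, with overlapping groups and no call (log2 fold change -0.04, adjusted p = 0.259). The difference between the changes of these neighbours was not tested.

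Elongases lengthen fatty acids by carbon pairs and differ in the chains they accept. Elovl5, which acts on polyunsaturated chains and had the highest level of the 6 elongases per kilobase, was at 93.5, 89.5 and 88.1 CPM in WT EBs and at 115, 115 and 112 CPM in Tnfaip2-/- EBs (log2 fold change 0.34, standard error 0.03, adjusted p = 1.59e-12, edgeR). Elovl4, which makes very long chains, was at 23.4, 25.6 and 25.5 CPM in WT EBs and at 33.7, 32.9 and 32.0 CPM in Tnfaip2-/- EBs (log2 fold change 0.40, standard error 0.05, adjusted p = 3.56e-09). Elovl6, which extends palmitate, was at 122, 125 and 123 CPM in WT EBs and at 98.7, 102 and 107 CPM in Tnfaip2-/- EBs (log2 fold change -0.27, standard error 0.03, adjusted p = 5.36e-10). None of the 3 overlapped between the groups. The level of Elovl5 per kilobase, divided by that of Elovl6, was 1.39, 1.30 and 1.31 in WT EBs and 2.13, 2.06 and 1.91 in Tnfaip2-/- EBs.

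The remaining elongases were expressed at lower levels. Elovl2, which like Elovl5 extends polyunsaturated chains, was at 15.7, 14.7 and 14.9 CPM in WT EBs and at 11.9, 13.8 and 12.99 CPM in Tnfaip2-/- EBs (log2 fold change -0.22, adjusted p = 0.00552, edgeR). Without replicate 1 of the Tnfaip2-/- EBs this call was lost (log2 fold change -0.17, adjusted p = 0.0504). Elovl7 was at 6.97, 7.32 and 7.58 CPM in WT EBs and at 8.89, 7.99 and 8.79 CPM in Tnfaip2-/- EBs (log2 fold change 0.23, adjusted p = 0.0228). Although the groups of Elovl7 did not overlap, its call was lost without replicate 1 of the WT EBs (log2 fold change 0.19, adjusted p = 0.1) and without replicates 1 or 3 of the Tnfaip2-/- EBs (0.20 in both, adjusted p = 0.0802 and 0.0829). The call was also lost without the expression filter (adjusted p = 0.0531) and with DESeq2 (adjusted p = 0.172), and DESeq2 did not call Elovl2 either (adjusted p = 0.0536). Elovl1 had overlapping groups and was not called (log2 fold change -0.06, adjusted p = 0.372).

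Acyl-CoA synthetases activate long-chain fatty acids for use in lipids or oxidation, and 5 of 5 were called, in both directions, beside 67.7% of all tested genes. Acsl4, which prefers arachidonate and related chains, was at 98.9, 106 and 104 CPM in WT EBs and at 78.9, 74.7 and 72.3 CPM in Tnfaip2-/- EBs (log2 fold change -0.45, standard error 0.04, adjusted p = 2.79e-15, edgeR). Acsl3, found at the endoplasmic reticulum and lipid droplets and the most abundant of the 5 per kilobase, was at 84.1, 86.8 and 84.4 CPM in WT EBs and at 105.5, 100.1 and 104 CPM in Tnfaip2-/- EBs (log2 fold change 0.28, standard error 0.03, adjusted p = 6.2e-10). Acsl1, which holds the sterol regulatory element before 1 of its starts, was at 30.9, 29.7 and 29.6 CPM in WT EBs and at 40.2, 41.4 and 38.8 CPM in Tnfaip2-/- EBs (log2 fold change 0.41, standard error 0.05, adjusted p = 1.53e-10). All 5 synthetases had groups that did not overlap, as did 69.4% of all tested genes. Acsl1 stood at 0.161, 0.145 and 0.147 of the level of Acsl4 per kilobase in WT EBs and at 0.263, 0.286 and 0.277 in Tnfaip2-/- EBs.

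Acsl6 had the largest change of all 44 members and the lowest level per kilobase, 0.466 CPM over all samples. It was at 5.82, 4.73 and 6.17 CPM in WT EBs and at 3.39, 3.79 and 3.83 CPM in Tnfaip2-/- EBs (log2 fold change -0.61, standard error 0.12, adjusted p = 3e-05, edgeR). Tested against a fold change of 1.5, it was not called (adjusted p = 0.824), and neither was any other member. Acsl5 was at 16.8, 16.1 and 18.8 CPM in WT EBs and at 15.3, 14.2 and 14.9 CPM in Tnfaip2-/- EBs (log2 fold change -0.22, adjusted p = 0.00478). Replicate 3 of the WT EBs was the highest for Acsl5, and without it the call was lost (log2 fold change -0.16, adjusted p = 0.0577).

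Set side by side, both arms held members that moved in either direction, and the median of the fatty acid arm lay lower. Of the fatty acid arm 90% were called and of the cholesterol arm 72.2%, beside 67.7% of all tested genes. In the fatty acid arm 7 of 20 genes were higher, 11 were lower and 2 were not called, compared with 5, 8 and 5 of the 18 genes of the cholesterol arm. The median log2 fold change was -0.14 in the fatty acid arm and -0.04 in the cholesterol arm, a difference of 0.10, beside a median of 0.00 over all tested genes. The middle 50% of the log2 fold changes ran from -0.29 to 0.22 in the fatty acid arm, from -0.30 to 0.14 in the cholesterol arm and from -0.30 to 0.31 in all tested genes. The difference between the arms was not tested. Over the arms the median size of the change was 0.26 and 0.24.

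**Figure D4:**
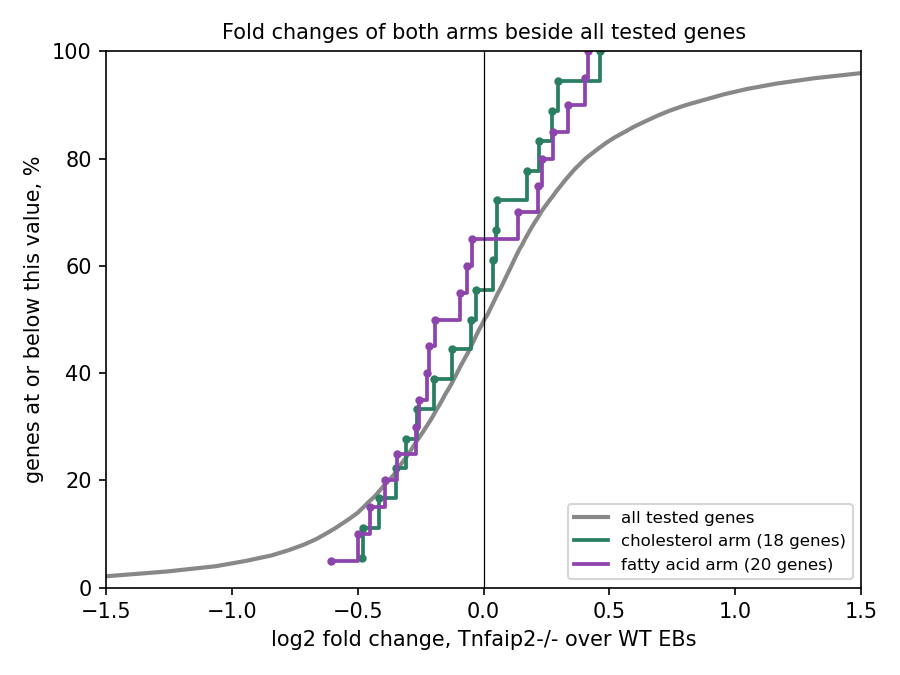
Share of genes at or below each log2 fold change (horizontal axis, Tnfaip2-/- over WT EBs) in percent, for the 18 genes of the cholesterol arm, the 20 genes of the fatty acid arm and all 17849 tested genes. Both arms end within -0.61 and 0.46, whereas the curve of all tested genes goes on beyond the axis on either side.

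The summed level of the fatty acid arm was lower in Tnfaip2-/- EBs, whereas that of the cholesterol arm was higher. In the cholesterol arm Hmgcs1 and Fdft1 rose most in CPM, while 8 of its 18 genes were called lower. The fatty acid arm summed to 2209, 2252 and 2170.4 CPM in WT EBs and to 1988, 1947 and 1966 CPM in Tnfaip2-/- EBs. In the mean it was 11.0% lower, or 9.9% lower when summed per kilobase of exon, and no sample of one genotype overlapped with the other. Without Scd2, its member with the largest difference in CPM, the sum changed by -8.0%, again with no overlap. The lower sum lay in the early steps and the desaturases. The 5 genes of acetyl-CoA supply, carboxylation and synthase were at 1068, 1096 and 1031 CPM in WT EBs and 941, 921 and 933 CPM in Tnfaip2-/- EBs. The 4 desaturases went from 619.8, 632 and 618 CPM to 515, 501 and 509 CPM. The 6 elongases were instead slightly higher in sum, at 284, 281 and 279 CPM in WT EBs and 289, 291 and 291 CPM in Tnfaip2-/- EBs. Elovl5 alone rose by more than this sum, from 90.4 to 114 CPM in the means, compared with 281 to 290 CPM. Of the 6 elongases, 3 were called higher and 2 lower. The 5 acyl-CoA synthetases overlapped, at 236.5, 243 and 243 CPM in WT EBs and 243, 234 and 233 CPM in Tnfaip2-/- EBs. No direction was thus seen in the sum of the synthetases. The 6 regulators also overlapped in sum, at 559, 561 and 532 CPM compared with 559, 559.5 and 577 CPM.

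**Figure D5:**
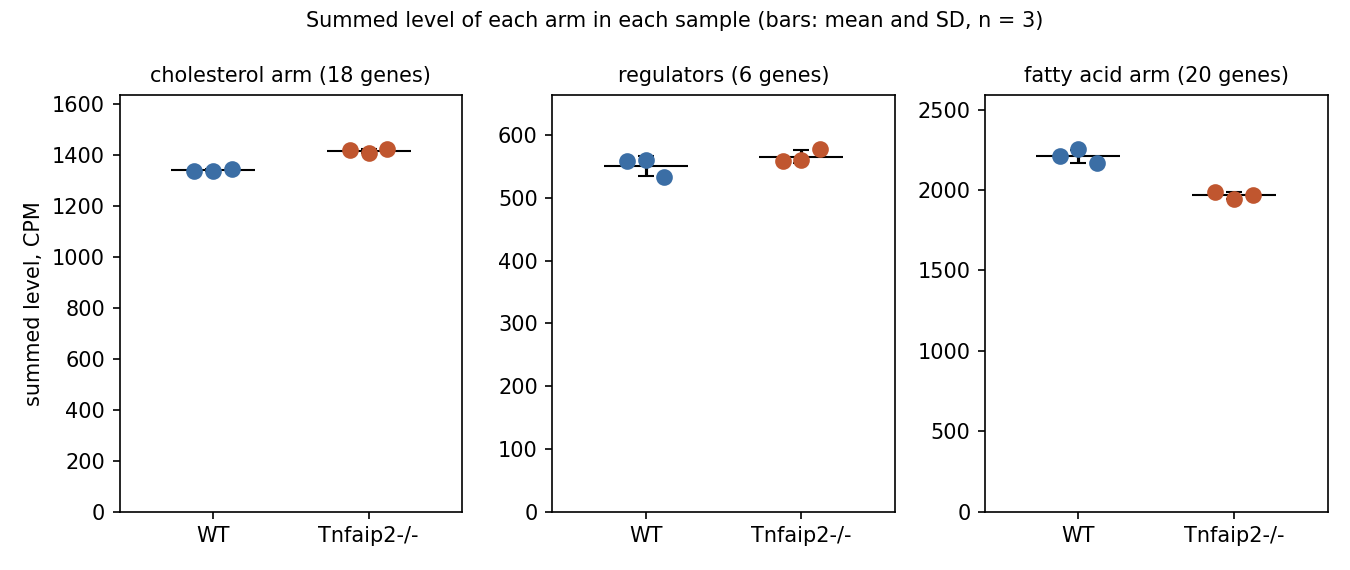
Summed level of the cholesterol arm, the regulators and the fatty acid arm (vertical axes, CPM, from 0) in each of the 6 samples, with bars for the mean and SD of 3 replicates. The cholesterol sums of the Tnfaip2-/- EBs, 1406 to 1422 CPM, lie above all WT sums, and their fatty acid sums, 1947 to 1988 CPM, lie below all WT sums.

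Other genes of these pathways, 56 in 6 lists, were read from the same test. Of these, 54 passed the expression filter, 14 (25.9%) were higher, beside 34.0% of all tested genes, and 27 (50%) were lower, beside 33.7%. Their median log2 fold change was -0.11, beside 0.00 over all tested genes. The single lists are small, and their counts are given as a description. Among 8 genes for proteases, anchors and ligases that act on SREBPs and their partners, 4 were higher and 2 were lower. Erlin1, which encodes an anchor of the endoplasmic reticulum that binds SREBP complexes, rose from 26.1, 30.1 and 29.2 CPM to 45.3, 42.7 and 42.4 CPM (log2 fold change 0.61, adjusted p = 7.04e-15, edgeR). Rnf139, a ubiquitin ligase gene, fell from 41.1, 41.8 and 43.5 CPM to 35.7, 35.7 and 35.3 CPM (log2 fold change -0.25, adjusted p = 5.41e-06); its exons overlap Tatdn1 on the opposite strand over 22.3% of their length, so its count is uncertain. The proteases that cleave SREBPs, encoded by Mbtps1 and Mbtps2, were both higher, with log2 fold changes of 0.13 and 0.40. The count of Mbtps2 is uncertain too, since Yy2 on the same strand overlaps 28.4% of its exon length.

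Among branches from the isoprenoid pathway, 0 of 7 tested genes were higher and 5 were lower, beside 34.0% and 33.7% of all tested genes, and Idi2 was below the filter with at most 1 count in a sample. Pdss2, a subunit of the enzyme that makes the tail of ubiquinone, fell most, from 11.2, 11.9 and 12.4 CPM to 8.23, 7.72 and 7.17 CPM (log2 fold change -0.62, adjusted p = 1.21e-08, edgeR). Of 8 further SREBP targets, 0 were higher and 5 were lower, beside the same shares of all tested genes. Rdh11, a retinol dehydrogenase gene, led them at 36.4, 37.7 and 36.2 CPM in WT EBs and 23.1, 22.4 and 21.5 CPM in Tnfaip2-/- EBs (log2 fold change -0.72, adjusted p = 7.22e-17).

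Of 12 genes for sterol uptake, storage and efflux, 4 were higher and 5 were lower, beside 34.0% and 33.7% of all tested genes. Lrp8, a lipoprotein receptor gene, fell from 21.5, 20.2 and 19.5 CPM to 11.8, 11.4 and 12.2 CPM (log2 fold change -0.79, adjusted p = 2.87e-14, edgeR). Mylip, whose product targets lipoprotein receptors for degradation, rose from 2.12, 2.59 and 2.81 CPM to 4.71, 4.61 and 3.65 CPM (log2 fold change 0.78, adjusted p = 5.78e-06). Soat1, which esterifies cholesterol for storage, was also lower, with a log2 fold change of -0.68.

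On the fatty acid side, partners of the elongases and further desaturases had 3 of 12 tested genes higher and 7 lower, beside 34.0% and 33.7% of all tested genes. Elovl3 was below the filter with 0 counts in all Tnfaip2-/- samples. Fads3, a relative of Fads1 and Fads2, rose from 2.12, 2.50 and 1.92 CPM to 3.87, 4.70 and 4.46 CPM (log2 fold change 1.00, adjusted p = 6.62e-08, edgeR). Scd4 fell from 1.24, 1.47 and 1.32 CPM to 0.484, 1.10 and 0.767 CPM (log2 fold change -0.78, adjusted p = 0.00635). The elongation cycle also needs a dehydratase and a final reductase, and Hacd2 and Tecr, which encode such enzymes, were lower, with log2 fold changes of -0.60 and -0.28. Of 7 genes of citrate and NADPH supply, 3 were higher and 3 lower, beside the same shares of all tested genes. Me1, the cytosolic malic enzyme and a source of NADPH, rose from 55.8, 54.7 and 54.4 CPM to 97.4, 93.8 and 93.0 CPM (log2 fold change 0.79, adjusted p = 6.81e-24), whereas G6pdx and Pgd, the NADPH sources of the pentose phosphate pathway, were lower, with log2 fold changes of -0.35 and -0.21. The counts of Me1 and G6pdx are uncertain, since 27.9% and 16.6% of their 51-base windows occur in other genes. Mid1ip1, whose product promotes polymerization of acetyl-CoA carboxylase, fell most, from 22.4, 21.4 and 22.01 CPM to 7.53, 8.90 and 9.83 CPM (log2 fold change -1.33, adjusted p = 1.37e-20). Its exons overlap Gm14493 on the opposite strand over 25.5% of their length, so its count is uncertain.

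Markers of cell types moved with genotype beside all of these genes. Of the 4 markers of pluripotent cells, 2 were higher and 2 lower, beside 34.0% and 33.7% of all tested genes. Pou5f1 fell from 769, 749.6 and 761 CPM to 421, 424 and 412 CPM, and Utf1 was slightly lower, with overlapping groups (log2 fold change -0.06, adjusted p = 0.0465, edgeR). Sox2 rose from 278, 284 and 280.1 CPM to 326, 325 and 337 CPM (log2 fold change 0.23, adjusted p = 6.14e-11), and Nanog rose from 251, 255 and 268 CPM to 318, 306 and 304.5 CPM (log2 fold change 0.26, adjusted p = 9e-12). The lower sum of this list thus came from Pou5f1, while Sox2 and Nanog went up. All 5 markers of primitive streak and mesoderm were lower, beside 33.7% of all tested genes, and T, the most abundant of them per kilobase in WT EBs, was at 34.2, 32.7 and 36.9 CPM in WT EBs and at 0.220, 0.137 and 0.0451 CPM in Tnfaip2-/- EBs, where Eomes was the most abundant at 4.44 CPM per kilobase. All 4 markers of neural ectoderm were lower, with sums of 107, 107 and 99.7 CPM in WT EBs and 46.6, 44.8 and 45.9 CPM in Tnfaip2-/- EBs and Sox1 as the most abundant. Both germ layer lists were thus lower in every Tnfaip2-/- sample than in any WT sample.

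The endoderm lists were also lower in sum. Definitive endoderm, with Cxcr4 as its most abundant gene per kilobase, had 1 of 4 markers higher and 2 lower, beside 34.0% and 33.7% of all tested genes. Its sums were 11.5, 11.3 and 9.66 CPM compared with 7.57, 7.85 and 8.79 CPM. Primitive and visceral endoderm had 6 of 8 markers lower, beside 33.7% of all tested genes, with Amn as the most abundant per kilobase. The sums of this list were 92.8, 95.3 and 89.1 CPM compared with 73.4, 72.6 and 72.8 CPM. Most of these sums was Cubn, at 51.3 CPM in the mean of the WT EBs and 48.1 CPM in that of the Tnfaip2-/- EBs (log2 fold change -0.09, with overlapping groups). The median log2 fold change of the list was -1.23, and its sum per kilobase changed by -39.8%, and the other 5 lower markers each fell by more than the sum in CPM, while Gata4 and Gata6 were not called. Visceral endoderm secretes lipoproteins, and Apob, which encodes their main protein, was at 7.15, 9.02 and 7.70 CPM in WT EBs and at 2.20, 1.60 and 1.76 CPM in Tnfaip2-/- EBs.

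The trophoblast markers did not move as a list, since 1 of 4 rose and 1 fell, beside 34.0% and 33.7% of all tested genes. Tfap2c rose from 22.6, 20.5 and 21.9 CPM to 173, 169 and 171 CPM, Cdx2 fell from 1.85, 1.65 and 1.19 CPM to 0.0440, 0.0913 and 0 CPM, and Elf5 and Gata3 were below the filter, so the list sums of 24.8, 22.4 and 23.4 CPM and of 173, 169.6 and 172 CPM were nearly all Tfap2c. Of 5 fibroblast markers, 2 were lower, beside 33.7% of all tested genes, 2 were not called and Postn was below the filter with 0 counts in all Tnfaip2-/- samples. The sums were 13.7, 15.2 and 13.6 CPM compared with 10.7, 10.5 and 10.8 CPM, with Thy1 as the most abundant per kilobase. The part of these cell type differences in the changes of the sterol and fatty acid genes was not tested.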

How the data were processed

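RNA of 3 WT and 3 Tnfaip2-/- EB samples was sequenced. The authors deposited raw counts per gene; by their notes, reads from an unstranded kit were mapped to GRCm38 with TopHat2 2.1.0 and counted with featureCounts 1.5.0. Here, 17849 genes passing filterByExpr (minimum count 10, total 15) were TMM-scaled and tested with edgeR 4.0.16 (robust quasi-likelihood test, Benjamini-Hochberg adjustment, threshold 0.05) in R 4.3.3 with limma 3.58.1, after the fit was tested on simulated counts. The common biological coefficient of variation was 0.0215. CPM are TMM-scaled, and levels per kilobase divide CPM by exon length in GENCODE vM21, in which shared exons and 51-base windows were also searched. Promoters are from RefSeq (GRCm38.p6). Arms are described by counts and medians, without a test. Alternatives were other scalings and filters, DESeq2 1.42.0, an older edgeR fit, a test against 1.5-fold, a threshold of 0.01, a replicate block, leaving out each sample and, added after seeing the data, sums without their gene of largest difference. Members and lists were chosen with earlier results of these data known. Values per sample are given for all regulators, for the largest rise, largest fall and highest level per kilobase of each role, for members whose call changed under an alternative, and for the largest called rise and fall of each pathway list. The isoprenoid branches and the further SREBP targets held no called rise. The test against 1.5-fold, which ended every call, was not used for this choice, and Mvk, Pmvk, Msmo1, Sqle, Fasn, Acaca, Fads1, Fads2, Acsl4 and further pathway and marker genes were added after their values were seen.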

Additional observations from a re-analysis of the deposited data

How the results depend on the processing

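The direction of every call among the 44 members held under all alternatives run. Of 660 values of single members, leaving aside the test against a fold change of 1.5, 25 lost and 2 gained a call; the calls concerned were those of Nsdhl, Acss2, Acacb, Elovl2, Elovl7, Acsl5 and Idi1, with log2 fold changes between -0.22 and 0.23. DESeq2 did not call Nsdhl, Acss2, Acacb, Elovl2 and Elovl7. The test against a fold change of 1.5 called 1615 genes higher and 1183 lower over all tested genes, 0 members in either direction and so 0 in each arm and among the regulators; that test asks for a larger change by construction. The median of the cholesterol arm was -0.012 with library totals, -0.014 with the upper quartile and -0.058 without the filter, and that of the fatty acid arm was -0.114, -0.116 and -0.161. With both scalings the median of all tested genes moved alike, from 0.003 to 0.031 and 0.029, and the difference between the arms stayed at 0.102 to 0.103. Without the filter that median was 0.016 over 30163 genes; the cause of the lower arm medians was not tested. In alternatives chosen after seeing the data, the summed cholesterol arm was 7.8% higher and the fatty acid sum changed by -9.3% with library totals. Without Hmgcs1 the change of the cholesterol sum was -0.1% and that of its mevalonate and isoprenoid steps -11.4%. The later stage, which does not hold Hmgcs1, was 4.6% higher. This rise lay nearly all in Fdft1 (161 to 197 CPM in the means), and a sum without Fdft1 was not run. Without Scd2 the change of the fatty acid sum was -8.0%. With each sample left out in turn, the median ranged from -0.069 to -0.019 in the cholesterol arm, from -0.166 to -0.125 in the fatty acid arm and from 0.123 to 0.174 in the regulators, and the difference between the arms from 0.081 to 0.12.

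No pairing by replicate number was seen. Same-numbered samples had correlations of their deviations from the group means between -0.0324 and -0.0218, and differently numbered samples between 0.00419 and 0.0211. Such values cannot tell whether the cultures were made in pairs. A fit with the replicate block called 5937 genes higher and 5904 lower, with 15 members higher and 20 lower; Acss2 lost its call (log2 fold change 0.137, adjusted p = 0.0524, edgeR; from 0.0162 to 0.338 over its alternatives other than the test against 1.5-fold) and no other member did. Counts of 0 to 3 in a sample, as for Tnfaip2, are too few for a precise level.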
